A study of Mus musculus with 2 samples.

Results

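The cells described here are the keratin-positive tumour cells with the highest transcript levels of interferon-stimulated genes in single-cell RNA sequencing of dissociated mouse tumours. Tumour cells were those with at least 4 UMIs (unique molecular identifiers, each standing for 1 captured RNA molecule) of Krt8 and Krt18 together per 10000 UMIs, with at most 5 of the endothelial genes Cdh5, Egfl7 and Emcn and at most 15 of the fibroblast genes Dcn and Lum. Each tumour cell was scored by its UMIs of Bst2, Rsad2, Isg15, Ifi44, Ifit1 and Ifit3 per 10000 UMIs, and the top 10% over both libraries pooled were taken. This gave 1015 interferon-high cells of 10154 tumour cells, out of 15853 cells kept in all.

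The series compared a knockout library, from tumours of Cdh-cre Myct1 fl/fl mice, with a WT library, both on the C57BL/6 strain. The label does not say which Cdh promoter drives Cre, and it was read here as that of Cdh5, the endothelial cadherin gene. On that reading the floxed Myct1 alleles are targeted in cells that use this promoter, chiefly endothelial cells. Each library was 1 droplet preparation of tumours from 4 mice pooled before enzymatic digestion. No age, sex or tumour model of the mice, no sorting step and no floxed exon is named in the labels.

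With 1 library per genotype there was no replicate, and no test was made: every interval below covers counting error only, and genotype cannot be told apart from library. Members of the interferon-high set are cells of the same 2 libraries and are not replicates. They were chosen by transcript values of the same cells, so their difference from the other tumour cells is a description of what the score selects.

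Total depth was 145331950 UMIs over 10700 barcodes in the knockout library (median 12921 per barcode) and 115519153 UMIs over 10880 barcodes in the WT library (median 8726). The labels call the source endothelial cells, but cells in the endothelial gate numbered 316 of 8033 kept cells in the knockout library and 549 of 7820 in the WT library. Myct1 was at 235 CPM (UMI counts of a gene summed over a set of cells and scaled to a total of 1000000) in the endothelial gate of the WT library, and its level in the knockout library was not analysed here, so the deletion was not checked. In the WT library it had 1 UMI in the interferon-high cells and 13 UMIs in the other tumour cells. Between the libraries 218 barcode sequences were shared, and 4 interferon-high cells of the knockout library and 2 of the WT library carried one of them.

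As background, interferons are cytokines that cells release on sensing viral or misplaced nucleic acids. Type I interferons bind a receptor made of Ifnar1 and Ifnar2, and the kinases Jak1 and Tyk2 then activate STAT proteins such as Stat2, which join Irf9 and bind a DNA element called the interferon-stimulated response element (ISRE). Interferon gamma binds Ifngr1 and Ifngr2 and acts mainly through pairs of STAT proteins on a different element, GAS. The induced genes block virus replication, increase antigen presentation and attract immune cells. In tumours, cancer cells can carry this programme, and its chemokines are known to draw T cells.

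Sites with the core letters of the ISRE, GAAA then any 2 bases then GAAA, on either strand (TTTC, any 2 bases, TTTC on the reverse), are shown for the score genes that have one and for genes that recur in the results below, so that the sequence shared by most of the score can be seen. They were read from RefSeq promoter windows of 300 bases (250 before and 50 after the start) on the GRCm38.p6 (mm10) build, and each is printed 5′ to 3′ on the strand of its gene with the motif in capitals. Each lies upstream of its gene's start, and where a window held several (Ifit1, Ifit3, Isg15 and Bst2) the one farthest upstream is shown. The motif of Ifit1 began 104 bases before the start, within chr19:34640775-34640804 (+ strand).
Ifit1: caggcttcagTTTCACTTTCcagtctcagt
The site of Ifit3 lay at chr19:34583363-34583392 (+ strand).
Ifit3: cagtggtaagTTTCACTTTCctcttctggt
The site of Isg15 lay at chr4:156200877-156200906 (- strand).
Isg15: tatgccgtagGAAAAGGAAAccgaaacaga
The site of Rsad2 lay at chr12:26456553-26456582 (- strand).
Rsad2: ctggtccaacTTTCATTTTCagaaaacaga
The site of Bst2 lay at chr8:71537583-71537612 (- strand).
Bst2: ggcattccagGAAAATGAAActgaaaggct
The site of Cxcl10 lay at chr5:92349083-92349112 (- strand).
Cxcl10: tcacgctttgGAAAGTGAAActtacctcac
The site of B2m lay at chr2:122147538-122147567 (+ strand).
B2m: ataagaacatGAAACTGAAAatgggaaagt
The site of Gbp2 lay at chr3:142620594-142620623 (+ strand).
Gbp2: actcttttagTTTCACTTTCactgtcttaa
The site of Stat2 lay at chr10:128270266-128270295 (+ strand).
Stat2: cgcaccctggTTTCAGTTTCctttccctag
Of the 6 score genes, 5 had such a site in the window. Ifit1 and Gbp2 carry the same 10 letters, TTTCACTTTC, as does Ifit3.

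The knockout library supplied 877 interferon-high cells of 6535 tumour cells, a share of 13.4% (95% Clopper-Pearson interval 12.6 to 14.3), and the WT library supplied 138 of 3619, or 3.81% (3.21 to 4.49). The threshold cut a continuous distribution: the lowest member scored 11.643 UMIs per 10000 and the highest cell left out scored 11.641. The median score of the members was 20.3 in the knockout library and 17.7 in the WT library, against 1.35 and 0.65 in the other tumour cells. Scores reached 238 in the knockout library and 62.3 in the WT library. A score of 0 was found in 1161 tumour cells (17.8%) of the knockout library and in 1293 (35.7%) of the WT library. The whole distribution of tumour cells thus stood higher in the knockout library, with a median of 1.73 against 0.70 in the WT library, and the unequal shares go with that shift.

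**Figure D1:**
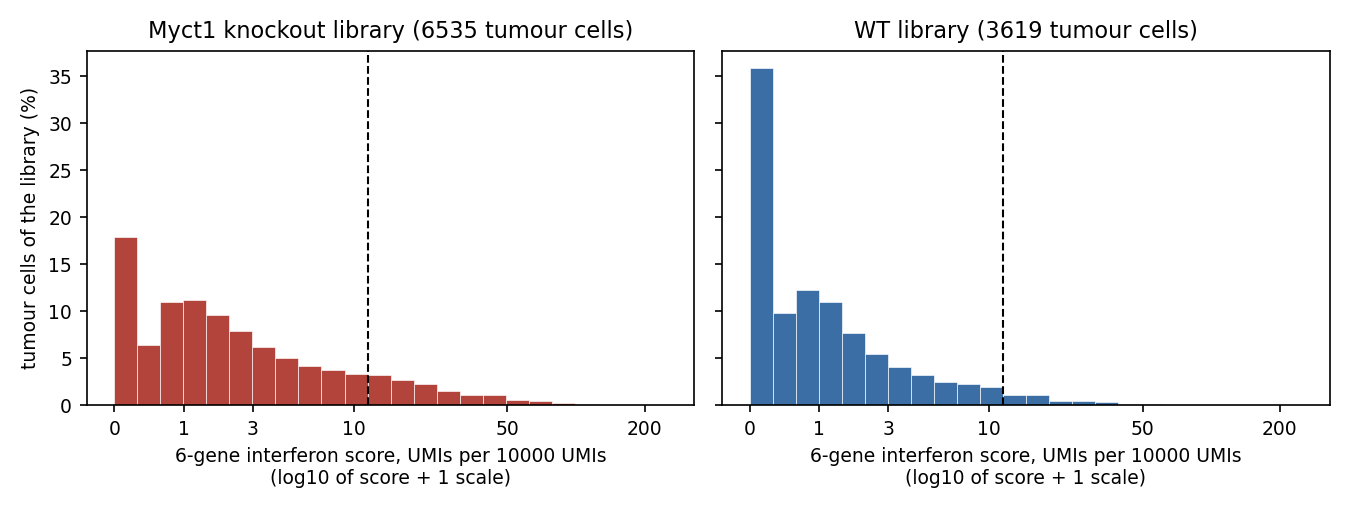
Distribution of the interferon score (summed UMIs of the 6 score genes per 10000 UMIs, on a log axis of the score plus 1) over tumour cells of the knockout library (left panel) and the WT library (right panel), as the share of each library's tumour cells per bin, with the membership threshold as a dashed line. The scores run through the threshold without a gap, and 13.4% of knockout and 3.81% of WT tumour cells lie above it.

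Members and other tumour cells were sequenced to nearly the same depth. Interferon-high cells had a median of 16564 UMIs in the knockout library and 15367 in the WT library, and the other tumour cells had 16711 and 15702. Their median mitochondrial share was 3.96% in the knockout library and 4.21% in the WT library, against 4.11% and 4.21% in the other tumour cells.

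The score genes were each far higher in the members, as the choice requires, but not equally so. Ifit1, which binds viral RNA caps, was at 341 CPM in members against 6.96 CPM in other tumour cells of the knockout library, and at 320 against 4.07 CPM in the WT library. Isg15, a ubiquitin-like modifier, was at 723 against 37.1 CPM in the knockout library and at 483 against 17.0 CPM in the WT library. Bst2 (tetherin), which holds budding virus at the cell surface, differed least, at 993 against 184 CPM in the knockout library and 933 against 123 CPM in the WT library. Bst2 was therefore also well represented in tumour cells that did not reach the threshold. When members were chosen on a random part of each cell's UMIs and measured on the rest, the log2 ratios of the 6 genes were 2.34 to 6.04 in the knockout library and 2.81 to 7.30 in the WT library, with Bst2 lowest in both.

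Beyond the score genes, 4923 genes reached 20 CPM in members or in other tumour cells of both libraries. A gene was counted as higher or lower where its CPM ratio passed 1.5-fold in the same direction in both libraries. This held for 133 genes that were higher (2.7% of those compared) and for 21 that were lower (0.427%). Within the knockout library alone 146 genes were higher (2.97%) and 34 lower (0.691%), and within the WT library alone 160 were higher (3.25%) and 68 lower (1.38%). No gene passed in opposite directions. Of the genes past 1.5-fold higher in the knockout library alone, 91.1% were also past it in the WT library, and 83.1% the other way round. The median log2 ratio of all 4923 genes was 0.02 in the knockout library and -0.01 in the WT library, so the difference lies in few genes. A strongly induced gene can reach the 20 CPM floor through its members alone, so counts over listed genes describe the pattern and are no measure of chance. Of the 133 higher genes, 75 belonged to a gene list of a pathway or cell type and 58 to none.

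The antiviral effectors made up the largest block. Of 41 listed, 37 had a row in both tables, 30 reached 20 CPM and 28 of those were higher in members of both libraries. Of all genes compared 2.7% were higher, and many of these effectors reached the floor through the members alone. The list had a median log2 ratio of 2.29 over 36 genes in the knockout library and 2.30 over 37 in the WT library. Mx1, a dynamin-like GTPase that traps viral nucleoproteins, was at 24.6 CPM in members against 0.54 CPM in others of the knockout library, and at 24.5 against 0.38 CPM in the WT library. Cmpk2, a nucleotide kinase next to Rsad2 in the genome, was at 50.4 against 0.97 CPM in the knockout library and at 43.8 against 0.88 CPM in the WT library. Both genes were close to absent from tumour cells below the threshold.

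Trim30a and Phf11d were also far apart, with log2 ratios of 4.35 and 3.74 in the knockout library and 4.08 and 4.20 in the WT library. Ifitm3, which blocks virus entry at endosomes, was abundant everywhere and differed less, at 2922 against 1203 CPM in the knockout library and 2155 against 704 CPM in the WT library. Ifitm2 and Ifi27 were the 2 that reached 20 CPM without passing 1.5-fold in both libraries, with log2 ratios of 0.05 and 0.58 in the knockout library and 0.12 and 0.72 in the WT library. The family of Ifitm genes therefore did not behave as a block. Ifit3b, listed as I830012O16Rik and nearly identical to Ifit3, was at 95.4 against 1.49 CPM in the knockout library and 72.1 against 0.65 CPM in the WT library, and reads of the 2 genes may be split between them.

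The 2 OAS-family genes that reached 20 CPM, Oas3 and Oasl2, were both higher in members, against 2.7% of all genes compared. Both reached the floor through the members alone. OAS enzymes make a second messenger that activates RNase L. Oas3 had a log2 ratio of 3.85 in the knockout library and 3.96 in the WT library, and Oasl2 had 3.41 in the knockout library and 4.04 in the WT library.

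Of 5 genes of Isg15 conjugation and of negative feedback at 20 CPM, 3 were higher, against 2.7% of all genes compared. Those 3 reached the floor through the members alone in both libraries. Usp18, which removes Isg15 from proteins and restrains the type I receptor, was at 83.5 CPM in members against 3.68 in others of the knockout library (log2 ratio 4.50, 95% interval 4.34 to 4.67). In the WT library it was at 77.3 against 3.39 CPM (4.51, 4.20 to 4.82). A Usp18 UMI was found in 59.7% of members against 4.79% of other tumour cells of the knockout library, and in 57.2% against 3.76% in the WT library. The conjugating enzyme Ube2l6 and the ligase Herc6 had log2 ratios of 3.13 and 3.01 in the knockout library and 3.78 and 3.86 in the WT library. Socs1, a different brake that acts on the kinases, was at a log2 ratio of 0.20 in the knockout library and 0.21 in the WT library, under the 1.5-fold limit, as was Socs3.

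Of 11 sensors of foreign nucleic acid at 20 CPM, 10 were higher, against 2.7% of all genes compared. Each of the 10 reached the floor through the members in at least 1 library, so the count partly follows from the floor. The listed sensors had a median log2 ratio of 2.68 in the knockout library and 2.93 in the WT library. Ddx58 (RIG-I), a receptor for viral RNA ends, was at 63.4 CPM in members against 9.87 CPM in others of the knockout library, and at 97.1 against 9.97 CPM in the WT library. Its relatives Ifih1 (MDA5) and Dhx58 (LGP2) had log2 ratios of 3.31 and 3.82 in the knockout library and 3.63 and 4.12 in the WT library. Zbp1, which binds left-handed nucleic acid and can start necroptosis, had 2.94 in the knockout library and 3.77 in the WT library. The exception was Tmem173 (STING), the adaptor for cytosolic DNA sensing, at 0.05 in the knockout library and 0.42 in the WT library.

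The interferon receptors and their kinases stood at like levels in members and other tumour cells: none of the 3 genes at 20 CPM passed 1.5-fold. Ifnar1 was below that floor, at 13.7 against 12.8 CPM in the knockout library (log2 ratio 0.10, 95% interval -0.11 to 0.31) and 16.5 against 14.5 CPM in the WT library (0.20). Ifnar2 was at 17.7 against 14.1 CPM in the knockout library and 14.1 against 13.0 CPM in the WT library.

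Transcription factors that carry and amplify the type I signal were also higher. Stat2 was at 46.5 CPM in members against 5.41 CPM in others of the knockout library and at 59.9 against 6.15 CPM in the WT library. Irf7, which amplifies interferon production, was at 77.2 against 5.68 CPM in the knockout library and 67.9 against 4.06 CPM in the WT library.

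Irf9, the DNA-binding partner of Stat2, was at 47.3 against 15.2 CPM in the knockout library and 73.1 against 16.9 CPM in the WT library. Irf1, a strong target of interferon gamma as well as of type I interferon, was at 47.5 against 23.5 CPM in the knockout library and 42.9 against 18.7 CPM in the WT library. The log2 ratio of Stat3 was 0.48 in the knockout library and 0.57 in the WT library, and that of Irf3 was 0.21 in the knockout library and 0.16 in the WT library.

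**Figure D2:**
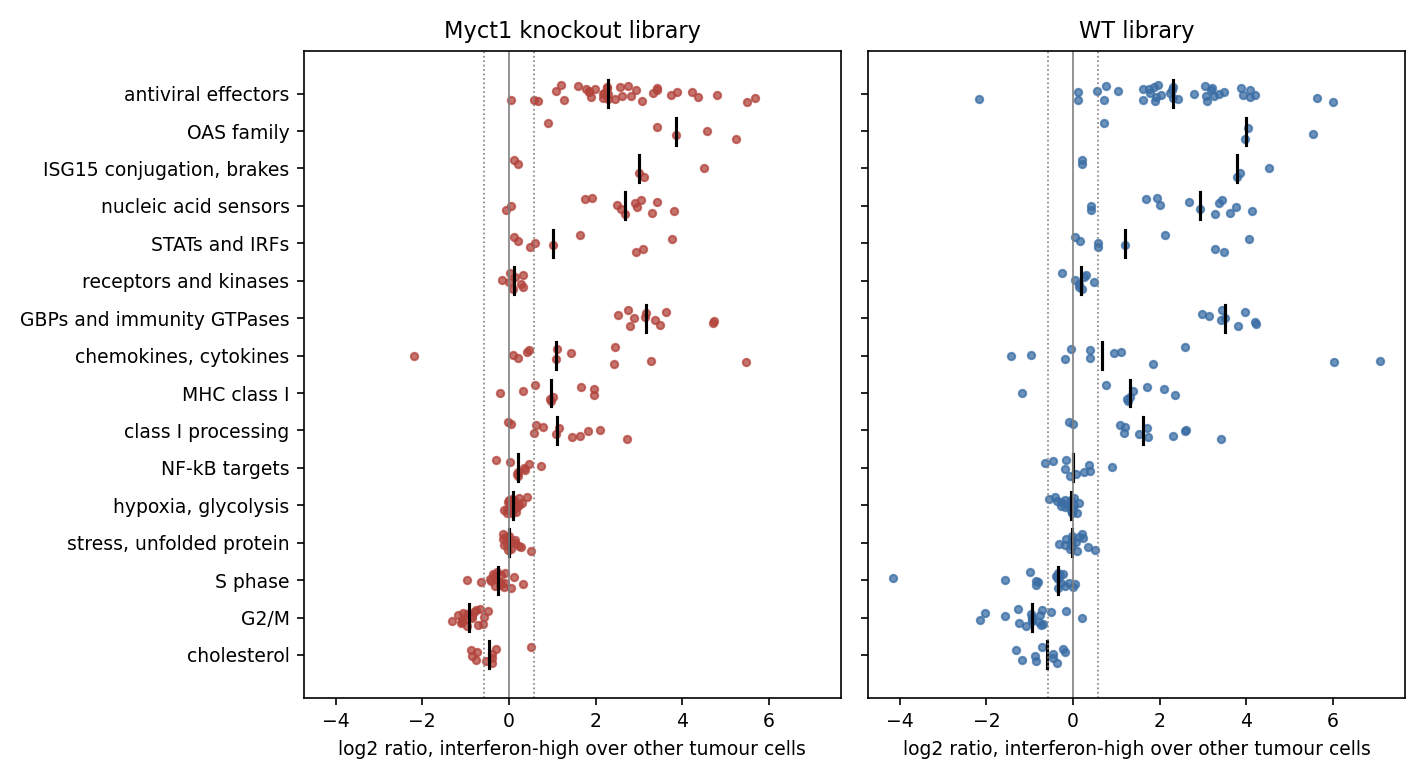
Log2 ratio of CPM, interferon-high cells over other tumour cells of the same library, for genes of each list with at least 20 UMIs, in the knockout library (left panel) and the WT library (right panel); a dot is a gene, a black bar the list's median and the dotted lines 1.5-fold. Antiviral genes, OAS genes, sensors and GTPases have medians between 2.29 and 4.00. Class I molecules and class I processing have medians between 0.97 and 1.62, and the G2/M list lies near -0.9.

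All 8 guanylate-binding proteins and immunity-related GTPases at 20 CPM, which attack vacuoles of intracellular microbes, were higher, against 2.7% of all genes compared. All but Gbp2 reached that floor through the members alone. The listed GTPases had a median log2 ratio of 3.17 in the knockout library and 3.51 in the WT library. Gbp2 was at 257 CPM in members against 37.2 CPM in others of the knockout library and at 350 against 25.0 CPM in the WT library. Gbp3, Iigp1 and Irgm1 had log2 ratios of 3.49, 3.63 and 2.51 in the knockout library and 4.21, 3.98 and 3.13 in the WT library.

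Cxcl10, a chemokine that draws T cells through Cxcr3, was used to mark these cells but not to choose them. It was at 543 CPM in members against 12.2 CPM in other tumour cells of the knockout library (log2 ratio 5.47, 95% interval 5.38 to 5.56). In the WT library it was at 208 against 3.19 CPM (6.03, 5.77 to 6.29). The members, 13.4% of knockout and 3.81% of WT tumour cells, held 87.3% of all tumour cell Cxcl10 UMIs in the knockout library and 71.4% in the WT library.

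Within the members Cxcl10 was unevenly spread. A UMI was found in 341 of 877 members of the knockout library (38.9%, 95% interval 35.6 to 42.2) and in 45 of 138 of the WT library (32.6%, 24.9 to 41.1), against 7.19% and 2.73% of other tumour cells. After thinning every cell to 3000 UMIs the shares were 25.9% of members against 1.88% of others in the knockout library and 19.6% against 0.85% in the WT library. The 10% of members richest in Cxcl10 held 78.5% of the members' Cxcl10 UMIs in the knockout library and 81.9% in the WT library. The same measure for Usp18 and B2m was 41.9% and 24.7% in the knockout library and 37.8% and 26.9% in the WT library. The chemokine was thus carried by fewer of the members than these genes were.

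Other secreted factors differed in how far they rest on single cells. Il15, a cytokine that sustains natural killer and memory T cells, had log2 ratios of 2.45 in the knockout library and 2.59 in the WT library. Ccl5, which attracts T cells and monocytes, was at 30.0 CPM in members against 3.08 CPM in others of the knockout library and at 158 against 1.15 CPM in the WT library. It had a UMI in 31 members of the knockout library and 8 of the WT library, and without the 2 richest members its log2 ratio was 2.74 in the knockout library and 4.28 in the WT library, where it had been 3.29 and 7.09. One WT member alone held 231 Ccl5 UMIs.

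Ccl4, a chemokine that attracts monocytes and T cells, was at 32.0 CPM in members against 0.09 CPM in others of the knockout library and 93.8 against 0.68 CPM in the WT library. It had a UMI in 15 members of the knockout library and 3 of the WT library, and the 2 richest members held 90.7% and 94.5% of its UMIs. Without them its log2 ratio was 5.01 in the knockout library and 2.99 in the WT library, where it had been 8.42 and 7.08. Cxcl9, a ligand of Cxcr3 that answers mainly to interferon gamma, was low in level but higher in members. It was at 5.25 against 0.98 CPM in the knockout library and 5.66 against 1.62 CPM in the WT library. A Cxcl9 UMI was found in 28 members of the knockout library and 3 of the WT library, where 1 member held 10 UMIs.

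The interferon beta gene Ifnb1 was measured in the knockout library and not analysed in the WT library. It was found in 3 kept cells, with 16, 4 and 1 UMIs. The first was the highest-scoring cell of all, at 238 UMIs of the score genes per 10000, with 263 UMIs of Ccl4, 168 of Cxcl10, 15 of Krt8 and 25 of Krt18. The second was also a member, with a score of 48.3, 21 UMIs of Ccl4 and 117 of Cxcl10. The third fell below the keratin limit, with a score of 97.4, 80 UMIs of Ccl4, 16 of Ccl5 and 74 of Cxcl10. All 3 had no UMI of the myeloid genes Lyz2, Tyrobp and Csf1r, and the second, at 44326 UMIs, had 1 UMI of the leukocyte gene Ptprc. The highest-scoring member of the WT library also carried Ccl4 (125 UMIs), Ccl5 (35) and Cxcl10 (47).

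Genes of MHC class I presentation were higher too, but by less than the antiviral genes. All 6 class I genes at 20 CPM were higher in both libraries, against 2.7% of all genes compared. Of them, H2-Q4 and H2-T22 reached the floor through the members alone. Over the 9 listed class I genes with at least 20 UMIs, lower ones included, the median log2 ratio was 0.97 in the knockout library and 1.31 in the WT library. B2m, the invariant light chain, was at 943 CPM in members against 464 CPM in others of the knockout library and 1141 against 459 CPM in the WT library. The heavy chain H2-K1 was at 676 against 344 CPM in the knockout library and 802 against 331 CPM in the WT library, and H2-D1 was at 545 against 282 CPM in the knockout library and 518 against 220 CPM in the WT library. The nonclassical genes H2-Q4 and H2-T23 had larger log2 ratios than these, 1.97 and 1.67 in the knockout library and 2.35 and 1.71 in the WT library. Class I genes are close in sequence, so reads may be split among them.

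Of 11 genes at 20 CPM that make and load class I peptides, 8 were higher, against 2.7% of all genes compared. Tap1, Tap2 and Psmb9 reached the floor through the members alone in both libraries, and Psmb8 did so in the WT library. Tap1, a subunit of the peptide transporter, was at 48.9 CPM in members against 7.38 CPM in others of the knockout library and 71.2 against 6.69 CPM in the WT library. Psmb8, a subunit of the immunoproteasome, was at 131 against 36.9 CPM in the knockout library and 80.1 against 13.3 CPM in the WT library. The general chaperones of the same route, Calr and Pdia3, had log2 ratios of 0.05 and -0.02 in the knockout library and 0.00 and -0.08 in the WT library. MHC class II genes summed to 1.64 CPM in members against 2.15 CPM in others of the knockout library and 5.19 against 2.38 CPM in the WT library, and none reached 20 CPM.

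Cd274 (PD-L1), which restrains T cells, was at 19.5 CPM in members against 2.25 CPM in others of the knockout library, just under the 20 CPM floor, and at 27.3 against 3.70 CPM in the WT library. A UMI was found in 22.8% of members of the knockout library and 25.4% of the WT library, against 3.57% and 5.34% of other tumour cells. Lgals9, a galectin that binds T cells, was at 22.2 against 2.20 CPM in the knockout library and 34.9 against 3.26 CPM in the WT library. Cd47 and Pvr did not pass 1.5-fold in both libraries. Of 6 cell death genes at 20 CPM, Mlkl, the executioner of necroptosis, was the 1 that passed, against 2.7% of all genes compared. It was at 21.7 against 11.1 CPM in the knockout library and 22.2 against 10.5 CPM in the WT library, so it reached the floor through the members alone.

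Outside the lists, the 15 higher genes with the largest ratios included Ccl4, described above. Rnf213, a very large ubiquitin ligase, was at 217 CPM in members against 34.5 CPM in others of the knockout library and 269 against 37.3 CPM in the WT library. Ifi207 (listed as AI607873), Mndal and Mnda, of the family of interferon-inducible DNA-binding proteins, had log2 ratios of 3.43, 2.74 and 2.58 in the knockout library and 3.15, 3.38 and 3.02 in the WT library. Trim12a, Trim12c, Apol9a, Apol9b, Trafd1, Tmem140, Parp10, Mov10 and Mitd1 lay between 1.59 and 3.04 in the knockout library and between 1.81 and 3.06 in the WT library. Reads of Trim12a and Trim12c, of Apol9a and Apol9b and of Mnda and Mndal may be split between the copies. Agrn, an extracellular matrix proteoglycan, was at 1.39 in the knockout library and 1.51 in the WT library.

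Cell cycle genes were the main group that was lower. Of 9 G2/M genes at 20 CPM, 6 were lower in members of both libraries (Top2a, Cdk1, Birc5, Ube2c, Cenpa and Tpx2), against 0.427% of all genes. All 18 listed G2/M genes that were measured had a log2 ratio below 0 in the knockout library and 17 of 18 in the WT library, with medians of -0.91 in the knockout library and -0.95 in the WT library. Ube2c, which marks mitotic proteins for destruction, was at 35.8 CPM in members against 75.5 CPM in others of the knockout library and at 10.4 against 46.9 CPM in the WT library. The mitotic genes Racgap1, Hmmr, Prc1 and Anln, outside the list, had log2 ratios of -1.04, -1.64, -0.68 and -0.64 in the knockout library and -1.07, -0.89, -1.32 and -0.64 in the WT library. After thinning every cell to 3000 UMIs, Hmmr turned to 0.29 in the WT library. The S phase list had medians of -0.24 in the knockout library and -0.34 in the WT library, and none of its 9 genes at 20 CPM passed 1.5-fold.

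Pttg1 (securin), named after its values were seen, went against the other mitotic genes, at 61.9 CPM in members against 30.2 CPM in others of the knockout library and at 47.1 against 23.6 CPM in the WT library.

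Genes of cholesterol synthesis were among the lower ones. The list of cholesterol genes had a median log2 ratio of -0.46 in the knockout library and -0.59 in the WT library. Idi1 and Cyp51, enzymes of sterol synthesis, had log2 ratios of -0.86 and -0.87 in the knockout library and -0.87 and -1.32 in the WT library. Fdps and Msmo1, of the same pathway but outside the list, had -0.97 and -0.67 in the knockout library and -1.08 and -0.59 in the WT library.

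No gene passed 1.5-fold in both libraries among the genes at 20 CPM in the lists for hypoxia and glycolysis (19), immediate early genes (13), the integrated stress and unfolded protein response (12), heat shock (8), oxidative phosphorylation (16), NF-kB targets (6) and mesenchymal genes (9). The hypoxia list had a median log2 ratio of 0.10 in the knockout library and -0.05 in the WT library. The NF-kB list had 0.21 in the knockout library and 0.01 in the WT library.

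The keratins used for the gate did not pass 1.5-fold in both libraries, and their values lay below those of the other tumour cells. Krt8 was at 596 CPM in members against 845 CPM in others of the knockout library and 516 against 787 CPM in the WT library. Krt18 was at 677 against 975 CPM in the knockout library and 484 against 720 CPM in the WT library.

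Markers of other cell types gave no sum that was higher by 1.5-fold in members of both libraries. The 11 macrophage markers in both tables summed to 15.6 CPM in members against 16.1 CPM in others of the knockout library and to 11.8 against 17.6 CPM in the WT library. Of them, Csf1r, C1qc and Fcgr3 were at 0 in members of the knockout library, and these and C1qa, C1qb and Tyrobp were at 0 in members of the WT library. Of 12 lymphocyte markers, 1 had a row in the knockout library and 3 in the WT library, and Ptprc alone had one in both. The lymphocyte markers with a row summed to 0.13 against 0.04 CPM in the knockout library and 0 against 0.14 CPM in the WT library. Endothelial markers summed to 20.4 against 22.6 CPM in the knockout library and 28.3 against 22.6 CPM in the WT library, where cells of the endothelial gate held 6319 CPM and 8656 CPM. Cdh5, Egfl7 and Emcn are among these markers and also define both gates. The distance between tumour cells and the endothelial gate thus partly follows from the choice of cells. Mural cell markers summed to 26.0 against 38.2 CPM in the knockout library and 38.7 against 43.4 CPM in the WT library, and neutrophil and dendritic cell markers to 1.96 against 1.23 CPM and 2.36 against 1.64 CPM. Of the 10 neutrophil and dendritic cell markers, 5 had a row in the knockout library and 6 in the WT library.

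Fibroblast markers were lower in members, at 51.8 against 125 CPM in the knockout library and 169 against 394 CPM in the WT library. Dcn and Lum, which the tumour gate limits in members and other tumour cells alike, are among them. Col3a1 was the listed example, at 42.4 against 73.9 CPM in the knockout library and 58.9 against 136 CPM in the WT library, where the fibroblast gate held 16337 CPM and 19130 CPM. Red cell markers summed to 0.06 against 3.59 CPM in the knockout library and 3.30 against 170 CPM in the WT library. The part of such free or carried RNA in the lower genes was not tested. Leaving out genes over 3 times higher in the endothelial or fibroblast gate left 127 higher and 9 lower genes.

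The 133 higher genes and the 21 lower genes were set against the promoter motif printed above. A gene was counted if any of its windows held the letters. The ISRE letters were found in 41 of the 112 higher genes that had a RefSeq promoter window (36.6%) and in 0 of 17 lower genes. They were found in 128 of 3852 compared genes that were neither (3.32%) and in 1079 of all 27025 genes with a window (3.99%). The GAS letters TTCNNNGAA, which read the same on both strands, were found in 16 of the 112 higher genes (14.3%) and 1 of 17 lower genes (5.88%). They were found in 284 of the 3852 genes (7.37%) and in 2582 of all genes with a window (9.55%). A match is a run of letters and not a measured site, and genes were named as higher from the same cells. A gene could count for both motifs, since each was searched separately and overlapping matches were not removed.

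Gene levels were then followed over the range of the score, in bands of all tumour cells by pooled rank (the lowest 50%, then up to 80%, 90%, 95%, 99% and the top 1%). The bands are cut from the score and hold few WT cells at the top, with 50 and 5 in the last bands against 356 and 97 of the knockout library. In the knockout library Cxcl10 was at 6.92, 14.1, 23.99, 88.5, 494 and 3113 CPM from the lowest band to the highest, so that most of its increase lay above the membership threshold. In the WT library it was at 2.47, 3.99, 6.84, 47.7, 201 and 2232 CPM.

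Usp18 increased over the whole range in the knockout library, at 0.49, 2.56, 16.9, 45.3, 98.2 and 221 CPM. In the WT library it was at 0.46, 4.40, 26.1, 70.7, 89.4 and 68.2 CPM, lower in the last band of 5 cells. B2m was at 353, 500, 716, 840, 1013 and 1185 CPM in the knockout library, and Ifi27 levelled off there, at 88.0, 142, 201, 194, 180 and 195 CPM. In the WT library B2m was at 379, 567, 798, 1127, 1169 and 1111 CPM, and Ifi27 at 59.6, 112, 160, 117, 159 and 127 CPM. The summed G2/M genes were at 973, 905, 639, 529, 521 and 372 CPM in the knockout library, and at 823, 575, 433, 436, 558 and 166 CPM in the WT library. Most of the lower G2/M level was thus reached before the membership threshold in both libraries.

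**Figure D3:**
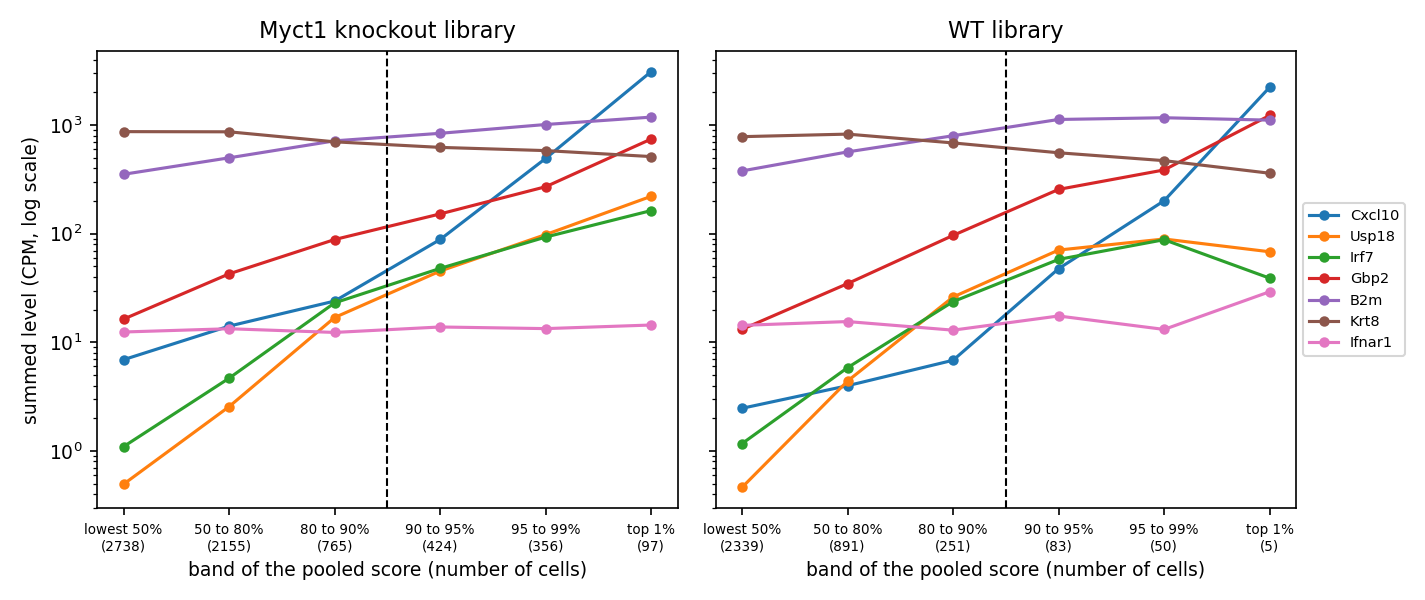
Summed CPM (log axis) of 7 genes in 6 bands of tumour cells ordered by the interferon score, in the knockout library (left panel) and the WT library (right panel), with the number of cells under each band and the membership threshold as a dashed line. In the knockout library Cxcl10 climbs to 3113 CPM in the last band, B2m climbs gradually, Krt8 declines and Ifnar1 stays level.

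The members were also described by how much of their score came from Bst2. In 362 members of the knockout library (41.3%) and 70 of the WT library (50.7%), Bst2 supplied at least 50% of the score UMIs. This split was chosen after the values were seen, uses values of the membership rule and goes with the score, so it does not define separate kinds of cell. These Bst2-led members had a median score of 16.2 against 25.4 in the other members of the knockout library and 15.7 against 22.5 in the WT library. Cxcl10 was at 40.4 CPM in Bst2-led members, 854 CPM in the other members and 12.2 CPM in the other tumour cells of the knockout library, and at 27.3, 356 and 3.19 CPM in the WT library. Mx1 was at 5.78, 36.3 and 0.54 CPM in the knockout library and 5.25, 40.2 and 0.38 CPM in the WT library, and Cd274 was at 5.12, 28.5 and 2.25 CPM in the knockout library and at 10.5, 41.1 and 3.70 CPM in the WT library. On the CPM scale the Bst2-led members stood nearer to the other tumour cells than to the other members in these genes. By ratio this held for Cxcl10 and Cd274, but Mx1 stood nearer to the other members in both libraries.

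Class I genes did not follow that order. B2m was at 966 CPM in Bst2-led members, 928 CPM in the other members and 464 CPM in the other tumour cells of the knockout library, and at 1287, 1022 and 459 CPM in the WT library. H2-K1 was at 721, 649 and 344 CPM in the knockout library and 856, 758 and 331 CPM in the WT library. Ifitm3 and Lgals3bp were also at least as high in Bst2-led members, at 3230 against 2732 CPM and 229 against 200 CPM in the knockout library. Usp18 lay between, at 37.5, 112 and 3.68 CPM in the knockout library and 52.5, 97.6 and 3.39 CPM in the WT library. The summed G2/M genes were at 514, 508 and 898 CPM in the knockout library and 406, 515 and 729 CPM in the WT library.

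**Figure D4:**
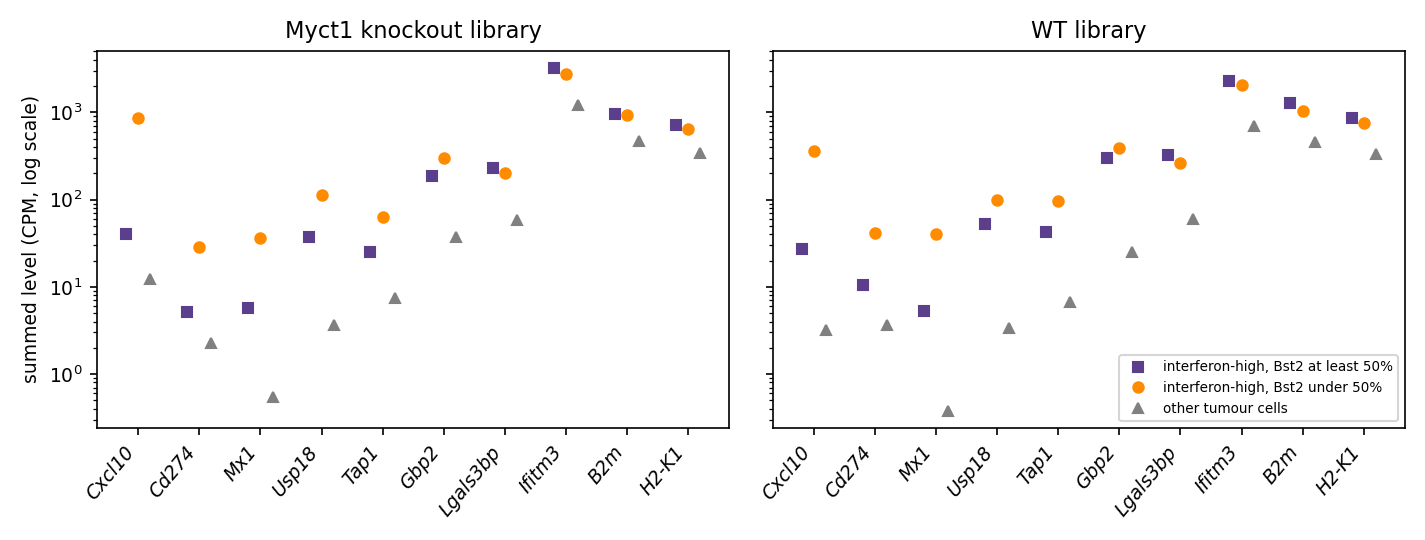
CPM (log axis) of selected genes in Bst2-led members, other members and other tumour cells of the knockout library (left panel) and the WT library (right panel). Bst2-led members are those with at least 50% of their score UMIs from Bst2. Cxcl10, Mx1 and Cd274 stand highest in the other members, and B2m and H2-K1 are slightly higher in Bst2-led members.

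Across single members thinned to 3000 UMIs (857 of the knockout library and 133 of the WT library), Spearman's rho described how groups of genes went together. The points share library and depth. Cxcl10 went with the sum of Ifit1, Ifit3 and Rsad2, at 0.50 in the knockout library and 0.38 in the WT library, and with the GTPases, at 0.43 and 0.31. Bst2 and that sum had -0.07 and -0.23, and the score itself adds them together.

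Between the libraries, levels of the score genes in members are held close by the shared threshold on their sum, so they are given as values only. Ifit3 was at 298 CPM in members of the knockout library against 172 CPM in members of the WT library (log2 ratio 0.79), and at 3.94 against 1.41 CPM in the other tumour cells (1.48). Isg15 was at 723 against 483 CPM in members (0.58) and 37.1 against 17.0 CPM in others (1.13). Ifi44 went the other way, at 141 against 208 CPM in members (-0.57) and 6.46 against 6.44 CPM in others (0.00). Cxcl10 was at 543 against 208 CPM in members (1.38) and 12.2 against 3.19 CPM in others (1.94). B2m was at 943 against 1141 CPM in members (-0.28) and 464 against 459 CPM in others (0.01).

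Of the 4923 genes, 240 were at least 1.5-fold higher in knockout than in WT members (4.88%) and 503 were at least 1.5-fold lower (10.2%). In the other tumour cells the counts were 262 (5.32%) and 705 (14.3%). The median log2 ratio of knockout over WT was -0.14 in members and -0.17 in others. The antiviral list had medians of 0.11 in members and 0.10 in others, and the G2/M list had 0.22 in members and 0.23 in others.

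The difference of the member-to-other log2 ratio between the libraries was ranked over listed genes at 20 CPM. The largest were Ccl5, Cenpf, Gbp2, Epsti1, Herc6 and Zbp1 on the low side of the knockout library. On the high side they were Ube2c, Daxx, Ifi205, Ero1l, Zfp36 and Ier3. Genes under that floor were not ranked, and some differed by more, such as Ifitm1 at -1.24 and Ifi27l2a at 4.62. Ifi27l2a was at 7.21 CPM in members against 1.33 CPM in others of the knockout library. In the WT library it was at 0.47 against 3.19 CPM. Ccl5 had a difference of -3.81, and without the 2 richest members of each library its log2 ratios were 2.74 in the knockout library and 4.28 in the WT library. Gbp2 had a difference of -1.02: it was at 257 CPM in knockout members against 350 CPM in WT members, and at 37.2 against 25.0 CPM in the other tumour cells. Ube2c had a difference of 1.07, at 35.8 against 10.4 CPM in members and 75.5 against 46.9 CPM in others. The remaining 9 genes named from the ranking differed by -1.04 to -0.83 and by 0.49 to 0.82. Library and genotype cannot be told apart in any of them.

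**Figure D5:**
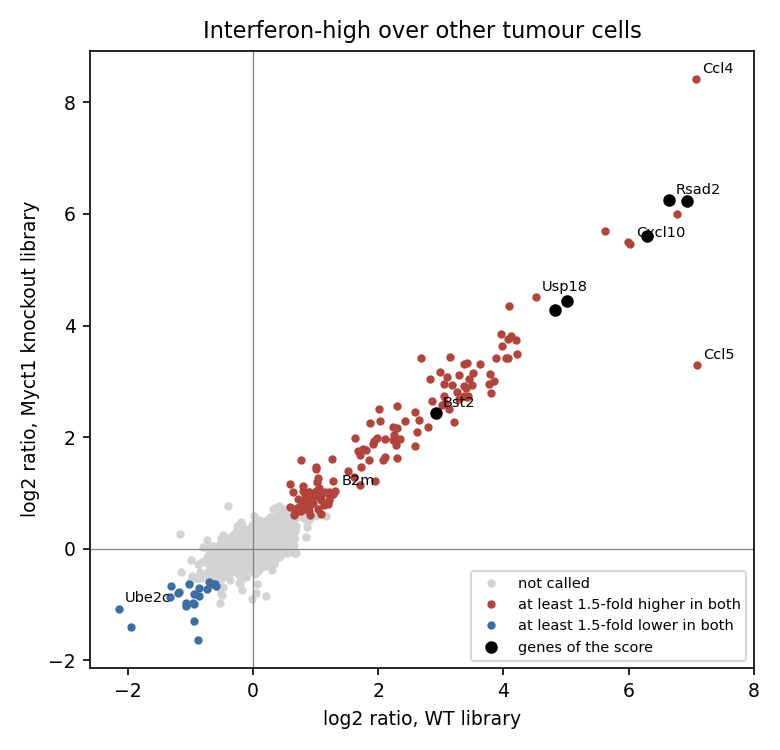
Log2 ratio of CPM, interferon-high cells over other tumour cells, in the knockout library (vertical axis) against the WT library (horizontal axis) for all genes at 20 CPM or more, with genes past 1.5-fold in both libraries coloured and the 6 score genes in black. The higher genes spread along the diagonal, and Ccl5 lies far off it, at 3.29 in the knockout library and 7.09 in the WT library.

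Cells outside the tumour gate reached the same threshold too. In the endothelial gate 65 of 316 cells of the knockout library (20.6%, 95% interval 16.2 to 25.5) and 40 of 549 of the WT library (7.29%, 5.26 to 9.79) scored at or above it. In the fibroblast gate 6 of 77 cells of the knockout library (7.79%) and 156 of 2623 cells of the WT library (5.95%) did. Interferon-high scores were therefore not confined to keratin-positive cells, and in the endothelial gate, as in tumour cells, the knockout library had the larger share.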

How the data were processed

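The authors deposited, per library, a table of UMI counts of genes against cell barcodes, whole numbers with no normalisation. The tables were made with Cell Ranger 2.1.1 and mm10, per the submitters' processing notes; each listed gene reached at least 4 UMIs in a barcode, so lower genes are missing. Cells with at least 500 genes and at most 10% mitochondrial UMIs were kept. Counts were summed over cells of a set and compared as log2 CPM ratios with a pseudocount of 0.5 counts and exact conditional binomial 95% intervals (scipy 1.17.1 and numpy 2.4.6 under Python 3.11.15). The ratio and its interval were tested on simulated data. Doublets were scored (scanpy 1.11.5) but not removed: a score over 0.3 marked 24 of 8033 cells of the knockout library (0.299%), too few for its calls to be relied on, and 127 of 7820 of the WT library (1.62%).

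Results of some genes are not reported here. The cell rule and gene lists were chosen with earlier results of these data known. Named genes were listed signalling genes, the extremes of each list, and the 15 highest and 10 lowest genes outside the lists without predicted symbols. The 6 listed genes at 20 CPM differing most each way between libraries were also named. Alternatives were the size of the top group, score genes, thinning, a random split of UMIs, doublets, stricter cell and tumour limits, scaling, depth weighting, low-count limits, free RNA, shared barcodes and extreme cells.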

Additional observations from a re-analysis of the deposited data

Results flagged for a closer look

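Kept cells that fell in no gate were outside the comparisons above and also reached the score of the interferon-high cells, in 245 of 1105 cells of the knockout library (22.17%, 95% Clopper-Pearson interval 19.8 to 24.7) and in 79 of 1029 of the WT library (7.68%, 6.13 to 9.48). The signal was singled out because the share in the knockout library was above that in the WT library, in cells that no comparison used. Of these cells, 232 of the knockout library (94.7%) and 68 of the WT library (86.1%) missed the tumour gate through the keratin limit alone. A Krt8 or Krt18 UMI was present in 218 (89.0%) and 60 (75.9%) of them, with a median of 2.64 and 2.30 keratin UMIs per 10000.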

How the results depend on the processing

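Across 16 alternatives no antiviral median or Cxcl10 ratio changed direction, while shares and counts have no direction to change. Of 110 values of these 4 kinds, 85 stayed close to those reported and 25 moved. With the top 5% of cells, the knockout and WT libraries had shares of 6.93% and 1.52%, antiviral medians of 2.56 and 2.72 and Cxcl10 log2 ratios of 5.82 and 6.73. With the top 20% they had shares of 25.1% and 10.8%, medians of 2.08 and 2.07 and Cxcl10 ratios of 4.84 and 4.70, with 87 higher genes. With 10% taken within each library the shares were 10.01% and 10.0% by construction, with Cxcl10 at 5.57 in the knockout library and 4.82 in the WT library. Cxcl10 was at 5.63 in the knockout library when Bst2 was left out of the score, which kept 81.4% of knockout and 74.6% of WT members. It was at 5.16 and 5.30 under stricter tumour limits, and at 5.31 and 5.08 without the 10 highest members of each library. It was at 5.57 in the knockout library without the top 8% of doublet scores. The higher genes numbered 87 to 183 over the alternatives and the lower genes 9 to 76: a 5 CPM floor gave 76 lower genes, as more genes entered, and leaving out genes over 3 times higher in the endothelial or fibroblast gate gave 9.

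Of 8600 values of single genes, 7027 stayed close, 1571 moved and 2 reversed, both in the WT library after thinning to 3000 UMIs: Hmmr at 0.29 and Casp12 at -0.40 on the log2 scale. The causes of these moves were not tested. The alternatives on extreme cells, shared barcodes and the highest doublet scores, and the removal of the richest Ccl4 and Ccl5 cells, were chosen after seeing the data. The 138 WT members limit the precision of low genes there. No paired analysis was possible because each genotype had 1 library and the labels carry no replicate numbers.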
